A study of Homo sapiens with 11 samples.

Results

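Cadherins and protocadherins were followed in cardiomyocytes kept in long-term culture, which had been differentiated from the established human iPSC line WTC11. Members were the genes of the count table whose symbol is CDH or PCDH followed by a number or a cluster name, leaving out CDH1, CDH5 and CDH17. The rule found 84 members among 19990 genes, of which 17 were CDH genes and 67 were PCDH genes. The protocadherins included 55 clustered genes, with 13 alpha, 19 beta and 23 gamma members, and 4 of these are annotated as pseudogenes (3 beta, 1 gamma). All groups shared the line at passage 63, the directed differentiation with CHIR99021 followed by IWP2, and culture in medium with B27 and insulin. They differed by age: 4 wells were collected on Day 30, 3 wells on Day 60 and 4 wells on Day 113. All wells came from a single differentiation of a single line, so p-values measure the spread between wells only. Day of culture and collection cannot be told apart, and in bulk RNA fewer cells of a type cannot be told apart from less RNA per cell.

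Classical cadherins are calcium-dependent adhesion proteins that bind the same or a related cadherin on the neighbouring cell and are tied to actin through catenins bound to their cytoplasmic tails. In heart muscle, N-cadherin (CDH2) holds cardiomyocytes together at the intercalated disc. Protocadherins have other cytoplasmic tails that do not bind beta-catenin in the classical way. The clustered protocadherins lie in tandem, each variable exon has its own promoter, and in neurons the choice among these promoters gives single cells different surface identities.

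The alpha, beta and gamma members in the table lie on chromosome 5. Their lowest start is 140794852 and their highest end is 141512981 (GRCh38). Promoter windows from RefSeq (GRCh38.p14), 300 bases long with 250 bases before and 50 after each start, were matched by symbol for 65 of the 84 members. In 39 clustered members a window matched the motif of the member's own family, described below, and the stretch around its letters CGCT was taken. Stretches of a family are therefore alike at the motif by selection, and clustered members without a match are left out. The stretches below are shown because they stand at the starts of clustered members whose wells are described further on, those that changed and those at 10 CPM or more on every day, and the capitals mark CGCT. All lie on the plus strand and read 5′ to 3′.
PCDHA4, chr5:140806975-140807008: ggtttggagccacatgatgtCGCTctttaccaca
PCDHA10, chr5:140855837-140855870: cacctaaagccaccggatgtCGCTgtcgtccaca
PCDHB2, chr5:141094540-141094573: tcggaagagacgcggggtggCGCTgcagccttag
PCDHB8, chr5:141177773-141177806: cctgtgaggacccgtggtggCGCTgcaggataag
PCDHB9, chr5:141187070-141187103: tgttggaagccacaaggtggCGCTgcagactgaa
PCDHB10, chr5:141192295-141192328: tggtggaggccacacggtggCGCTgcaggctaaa
PCDHB13, chr5:141213861-141213894: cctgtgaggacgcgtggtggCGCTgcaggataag
PCDHB14, chr5:141223259-141223292: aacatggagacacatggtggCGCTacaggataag
PCDHB15, chr5:141245310-141245343: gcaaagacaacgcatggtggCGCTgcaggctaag
PCDHGB6, chr5:141407920-141407953: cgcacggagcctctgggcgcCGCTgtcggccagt
PCDHGA10, chr5:141412927-141412960: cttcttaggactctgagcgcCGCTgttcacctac
PCDHGC3, chr5:141475876-141475909: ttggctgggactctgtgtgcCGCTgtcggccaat

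The family motifs were written after the sequences had been seen, and were searched on both strands. The letters GNTGTCGCT were found in 8 of 11 alpha windows and in 0.661% of all 35116 promoter windows. GGTGGCGCT was found in 13 of 14 beta windows and in 0.501% of all windows. GNGNCGCTG was found in 20 of 25 gamma windows and, overlapping GGTGGCGCT, in 12 of 14 beta windows, against 10.2% of all windows. The bare letters CGCT were present in 49 of 50 clustered windows and in 70% of all windows. These matches are descriptions of letters within the windows.

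The libraries held between 24.1 and 34.5 M counts each, where M stands for 1000000. Levels are given as CPM, counts per 1000000 counts after TMM scaling, with wells in replicate order. All 8 cardiomyocyte markers were measured, and their summed level was 26654 to 38001 CPM on Day 30, 32344 to 37163 CPM on Day 60 and 27143 to 29956 CPM on Day 113. Every fold change is a log2 value, given with its standard error for the main fit. Every adjusted p is from edgeR's quasi-likelihood test over all 19990 genes, except where alternatives are named. A call is an adjusted p under 0.05. All 84 members passed the low-count filter, which removed no gene. A level of at least 1 CPM on some day was reached by 64 members, and 20 stayed under it on every day.

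Between Day 30 and Day 60, 9 of the 84 members were called (10.7%), 2 higher and 7 lower, against 10.3% of all genes (4.39% higher, 5.91% lower). Between Day 60 and Day 113, 9 members were called (10.7%), 8 higher and 1 lower, against 24.0% of all genes (12.9% higher, 11.1% lower). From Day 30 to Day 113, 15 members were called (17.9%), 7 higher and 8 lower, against 34.5% of all genes (17.3% higher, 17.2% lower). The median log2 change of the members over these comparisons was -0.15, -0.031 and -0.12, beside -0.011, 0.0016 and -0.018 over all genes. In at least 1 of the 3 comparisons 20 members were called (23.8%), against 41.5% of all genes. These were 14 of the 29 non-clustered members (48.3%) and 6 of the 55 clustered members (10.9%). A test for any change over the 3 days called 18 members (21.4%), against 37.1% of all genes. The first and second intervals differed for 7 members, against 9.34% of all genes. For 6 of them the change after Day 60 lay above the change before it and for 1 below, against 4.97% and 4.38% of all genes.

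**Figure D1:**
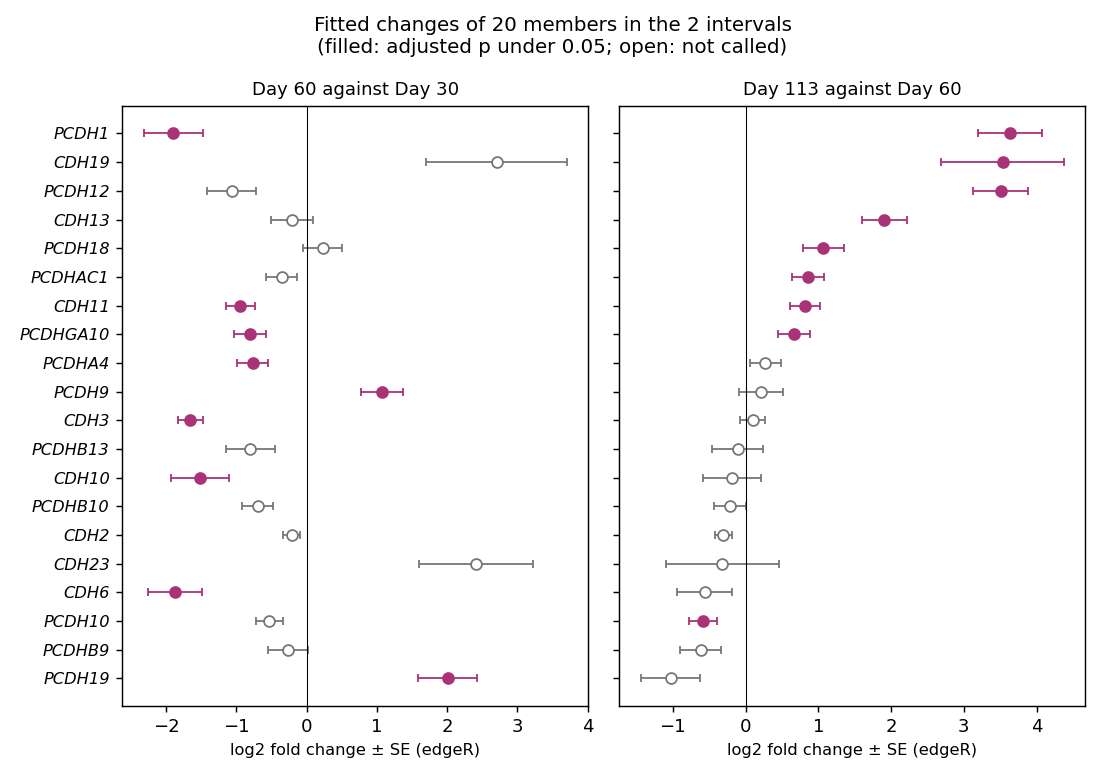
Log2 fold changes with standard errors (x axis) of the 20 members called in at least 1 pair of days, for Day 60 against Day 30 (left) and Day 113 against Day 60 (right). Filled points passed an adjusted p of 0.05: 7 of the 9 calls on the left are below 0 and 8 of the 9 on the right are above 0; both panels share the Day 60 wells.

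The leading classical cadherin was CDH2 (N-cadherin, chr18:27950966-28177446), which fell slowly across the culture. Its level was 651, 618, 525 and 605 CPM in the Day 30 wells, 583, 442 and 528 CPM on Day 60, and 479, 385, 427 and 381 CPM on Day 113. Every Day 113 well was below every Day 30 well, while the Day 60 wells overlapped with both. The fitted change from Day 30 to Day 113 was -0.52 ± 0.11 (adjusted p = 0.0016), and neither interval alone passed the test, at -0.21 ± 0.12 and -0.31 ± 0.12. Per kilobase of exon not shared with another gene in the table, CDH2 stood highest of the members whose level is given here, at 121 CPM per kb on Day 30, 105 on Day 60 and 84.4 on Day 113.

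CDH3 (P-cadherin, an epithelial and placental classical cadherin, chr16:68636189-68722616) dropped early and then held. The Day 30 wells had 217, 238, 230.5 and 176 CPM, the Day 60 wells 60.7, 82.3 and 62.7 CPM, and the Day 113 wells 52.2, 93.0, 82.3 and 65.7 CPM. All Day 30 wells were above all later wells, and the Day 60 and Day 113 wells overlapped. The change was -1.65 ± 0.18 by Day 60 (adjusted p = 3.3e-05), then 0.10 ± 0.17 to Day 113 (adjusted p = 0.74), a difference between intervals of 1.75 ± 0.32 (adjusted p = 0.0035). Its level per kb went from 34.5 to 11 and 11.8 CPM per kb.

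CDH6 (K-cadherin, a type II cadherin known from kidney, chr5:31193750-31329146) showed an early drop as well. It had 18.3, 18.2, 19.6 and 12.3 CPM on Day 30, 5.17, 3.32 and 5.55 CPM on Day 60, and 1.41, 1.72, 5.68 and 3.85 CPM on Day 113. The lowest Day 30 well was still above the highest later well. The changes against Day 30 were -1.87 ± 0.38 on Day 60 (adjusted p = 0.0055) and -2.43 ± 0.36 on Day 113 (adjusted p = 8.0e-05).

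CDH10, a type II cadherin best known from brain (chr5:24487100-24644978), had 10.1, 17.1, 15.5 and 7.76 CPM on Day 30. Its later wells had 6.70, 1.99 and 4.48 CPM on Day 60 and 4.88, 1.80, 3.39 and 5.38 CPM on Day 113, all below the Day 30 wells. It fell by 1.52 ± 0.41 on the log2 scale by Day 60 (adjusted p = 0.026) and by 1.71 ± 0.38 by Day 113 (adjusted p = 0.0023). The Day 60 call was lost in 4 fits that left out a well, those without Day 30 replicate 2 or 3 or Day 60 replicate 2 or 3, with adjusted p up to 0.10.

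Most listed markers of epithelial and endoderm cells also fell between Day 30 and Day 60, and other lists had falls too. Of 8 epithelial markers, all in the table, 7 were lower on Day 60 than on Day 30, and their summed level was 2175 to 3149 CPM on Day 30, 1295 to 1478 CPM on Day 60 and 1178 to 1967 CPM on Day 113. Of 7 endoderm or liver markers, all in the table, 6 were lower on Day 60, and their sum was 409 to 1186, 44.1 to 53.0 and 25.8 to 45.2 CPM. CDH17, an intestinal cadherin in that list, was at 0 in 2 of the 3 Day 60 wells. Day 30 replicate 4, the lowest Day 30 well for CDH3, CDH6 and CDH10, also had the lowest sum of both lists on that day. The match was not particular to these lists. That well was also lowest on Day 30 for the summed endothelial, fibroblast or stromal and neural markers, at 79.0, 3353 and 47.3 CPM. It was not lowest for the other marker lists. The Schwann or neural crest sum also fell, from 48.2 to 51.2 CPM on Day 30 to 35.1 to 39.0 CPM on Day 60. In that list 1 marker was called higher and 1 lower on Day 60. Of the fibroblast or stromal markers 3 were called lower and 1 higher, and of the endothelial markers 1 lower and 0 higher. The epicardial or mesothelial and the proliferating sums were higher on Day 60. The part of any of these markers in the falls of CDH3, CDH6 and CDH10 was not tested.

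CDH11 (OB-cadherin, a type II cadherin of mesenchymal cells, chr16:64943753-65126112) dipped on Day 60. Its wells read 53.0, 62.9, 59.7 and 44.2 CPM on Day 30, 31.5, 31.4 and 23.0 CPM on Day 60, and 74.2, 40.4, 50.6 and 36.4 CPM on Day 113. The Day 60 wells lay under all others, and Day 30 and Day 113 overlapped. The change was -0.94 ± 0.21 in the first interval (adjusted p = 0.0088) and 0.82 ± 0.21 in the second (adjusted p = 0.010), with a difference of 1.76 ± 0.38 (adjusted p = 0.0098). Without Day 60 replicate 3 both interval calls were lost, with adjusted p of 0.064 and 0.059. The 8 fibroblast or stromal markers, all in the table, summed to 3353 to 7707 CPM on Day 30, 2070 to 3570 CPM on Day 60 and 5431 to 13041 CPM on Day 113, with 3 of them lower and 1 higher in the first interval and 5 higher and 1 lower in the second. The Day 113 wells had the same order for CDH11 and for that sum, from replicate 1 through 3 and 2 to replicate 4, and the part of these markers in the change of CDH11 was not tested.

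CDH8, a type II cadherin known from neurons, was called in no pair. Its wells ran 19.7, 19.4, 18.3 and 23.8 CPM on Day 30, 19.3, 22.8 and 26.4 CPM on Day 60, and 24.0, 25.3, 33.2 and 23.0 CPM on Day 113. The days overlapped, and the value for Day 113 against Day 30 was 0.38 ± 0.15 (adjusted p = 0.056). It passed the threshold in 7 of 19 alternatives, with adjusted p of 0.035 to 0.21 over all 19: DESeq2, the filter at 1 CPM and the fits without Day 30 replicate 4, Day 60 replicate 1 or 3, or Day 113 replicate 1 or 4.

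CDH19 (chr18:66501083-66604138), a type II cadherin known from neural crest and Schwann cell precursors, rose late. Its wells had 0, 0, 0 and 0.172 CPM on Day 30, 0.160, 0.147 and 0.599 CPM on Day 60, and 6.09, 2.02, 4.28 and 1.85 CPM on Day 113. All Day 113 wells were above all earlier wells. The fitted rise was 3.53 ± 0.85 after Day 60 (adjusted p = 0.0068) and 6.24 ± 0.93 from Day 30 (adjusted p = 9.5e-05), and the latter rests on 5 Day 30 counts that all came from replicate 4. The alternatives gave 5.84 to 9.73 for that change, and no alternative ended the call.

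Markers known from Schwann or neural crest cells went different ways. From Day 30 to Day 113 S100B was called higher, ERBB3 was called lower and SOX10 was not called. Day 113 replicate 1, highest for CDH19, had the lowest values of that day for SOX10 (0.635 CPM) and S100B (0.433 CPM). S100B was at 0 in 2 of the 4 Day 30 wells. The Day 113 order of CDH19, replicates 1, 3, 2 and 4, was also that of the summed endothelial markers (899, 437, 399 and 234 CPM) and of the summed fibroblast or stromal markers (13041, 11269, 6758 and 5431 CPM). The part of any of these cells in the rise of CDH19 was not tested.

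**Figure D2:**
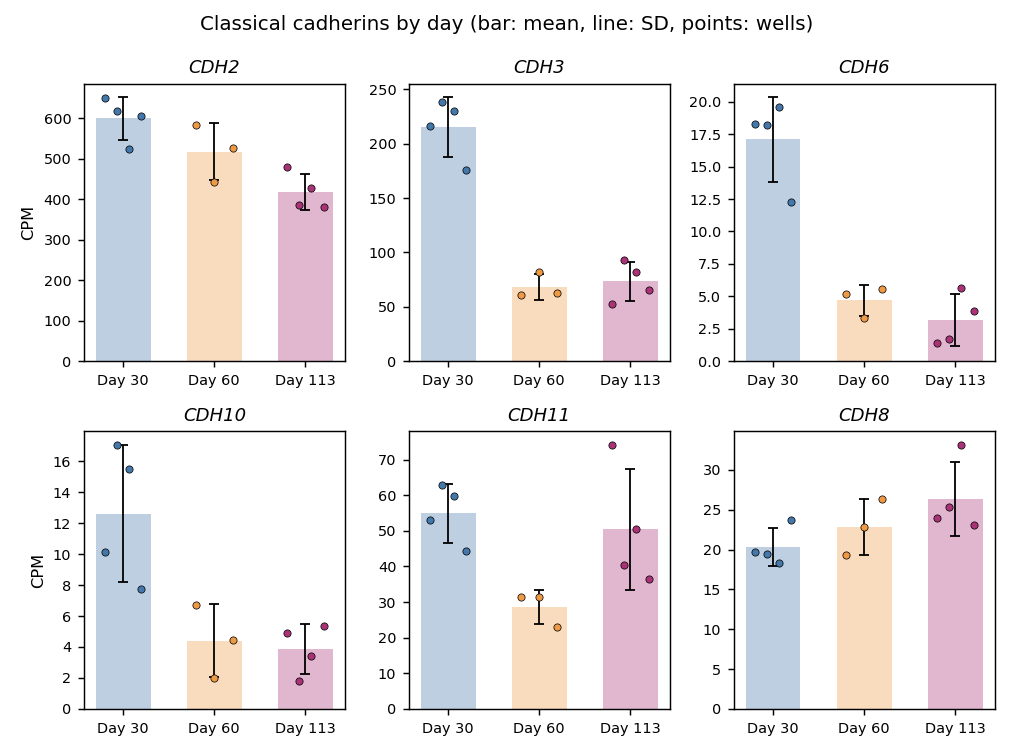
CPM (y axis, linear, from 0) of 6 classical cadherins by day, with a point per well, bars for means and lines for SD (n = 4, 3 and 4 wells). CDH3, CDH6 and CDH10 are highest in the Day 30 wells, CDH11 is lowest in the Day 60 wells at 23.0 to 31.5 CPM, CDH2 ends at 381 to 479 CPM, and the days overlap for CDH8.

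The remaining members of the classical groups were low. CDH4 and CDH15, the other type I members, stayed under 1 CPM on every day, and CDH7, CDH12, CDH20 and CDH24 peaked at day means of 1.35 to 6.10 CPM. None of these 6 was called in a pair.

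A group of non-clustered members rose after Day 60. PCDH12, known as a protocadherin of vascular endothelium (chr5:141943585-141969741), had 7.79, 7.04, 8.56 and 5.12 CPM on Day 30, 3.45, 4.42 and 2.37 CPM on Day 60, and 67.3, 35.4, 32.9 and 18.6 CPM on Day 113. The 3 days did not overlap, with Day 60 lowest and Day 113 highest. The change before Day 60 did not pass the test, at -1.07 ± 0.35 (adjusted p = 0.065), and the rise after it was 3.50 ± 0.37 (adjusted p = 1.6e-05). The intervals differed by 4.57 ± 0.67 (adjusted p = 9.9e-04).

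PCDH1, a delta-1 protocadherin known from airway epithelium, lies 64339 bases from PCDH12 on chromosome 5 (chr5:141853111-141879246) and took a like course. The Day 30 wells had 6.65, 9.21, 8.59 and 3.61 CPM, the Day 60 wells 1.69, 1.99 and 1.96 CPM, and the Day 113 wells 44.3, 21.3, 16.3 and 11.3 CPM. Again the days did not overlap. The change was -1.90 ± 0.42 to Day 60 (adjusted p = 0.0084, and 0.16 under limma-voom) and 3.63 ± 0.44 after it (adjusted p = 4.3e-05), and the intervals differed by 5.53 ± 0.81 (adjusted p = 9.9e-04).

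CDH13 (T-cadherin, chr16:82626803-83800640), which is held in the membrane by a lipid anchor in place of a cytoplasmic tail and binds adiponectin, changed only in the second interval by the test. It had 18.2, 17.9, 12.1 and 9.41 CPM on Day 30, 15.1, 11.5 and 10.9 CPM on Day 60, and 76.3, 33.7, 49.8 and 27.9 CPM on Day 113. Days 30 and 60 overlapped, and every Day 113 well was above both. The intervals gave -0.20 ± 0.30 (adjusted p = 0.77) and 1.91 ± 0.31 (adjusted p = 4.5e-04), and their difference of 2.11 ± 0.56 was itself called (adjusted p = 0.026).

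PCDH18, a delta-2 protocadherin (chr4:137518918-137532494), rose as well. Its wells held 9.43, 15.0, 13.2 and 6.80 CPM on Day 30, 11.9, 12.0 and 15.1 CPM on Day 60, and 37.7, 17.3, 33.6 and 20.4 CPM on Day 113, with all Day 113 wells above the earlier ones. The second interval gave 1.07 ± 0.28 (adjusted p = 0.012, and 0.054 without Day 60 replicate 1). Its intervals did not differ by the test, at 0.84 ± 0.50 (adjusted p = 0.33).

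Endothelial markers moved with these rises. All 8 listed markers were in the table and all 8 were called higher on Day 113 than on Day 60 and than on Day 30. Their summed level was 79.0 to 110 CPM on Day 30, 50.6 to 82.4 CPM on Day 60 and 234 to 899 CPM on Day 113, and no marker had a mean of 0 on any day. CDH5, the VE-cadherin of endothelial junctions, had 18.8, 21.2, 17.7 and 9.65 CPM on Day 30, 7.24, 11.3 and 4.95 CPM on Day 60 and 155, 56.2, 57.6 and 37.6 CPM on Day 113. Day 113 replicate 1 was highest and replicate 4 lowest for CDH5, PECAM1, PCDH1, PCDH12 and CDH13. PCDH18 was highest in replicate 1 and lowest in replicate 2. Other lists were higher on Day 113 as well: 5 of 8 fibroblast or stromal markers rose and 1 fell after Day 60, with the sums given for CDH11. Of 6 smooth muscle or pericyte markers 5 were measured, 3 rose and 0 fell after Day 60, and their sum was 660.4 to 914 CPM on Day 30, 726 to 882 CPM on Day 60 and 931 to 1424 CPM on Day 113. The Day 113 wells had the same order, from replicate 1 through 3 and 2 to replicate 4, for CDH13 and for the endothelial, stromal and smooth muscle sums. The part of any of these lists in the rises was not tested. The rises of PCDH1, PCDH12 and CDH13 after Day 60 were called under each of the 19 alternatives, including the fit without Day 113 replicate 1.

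**Figure D3:**
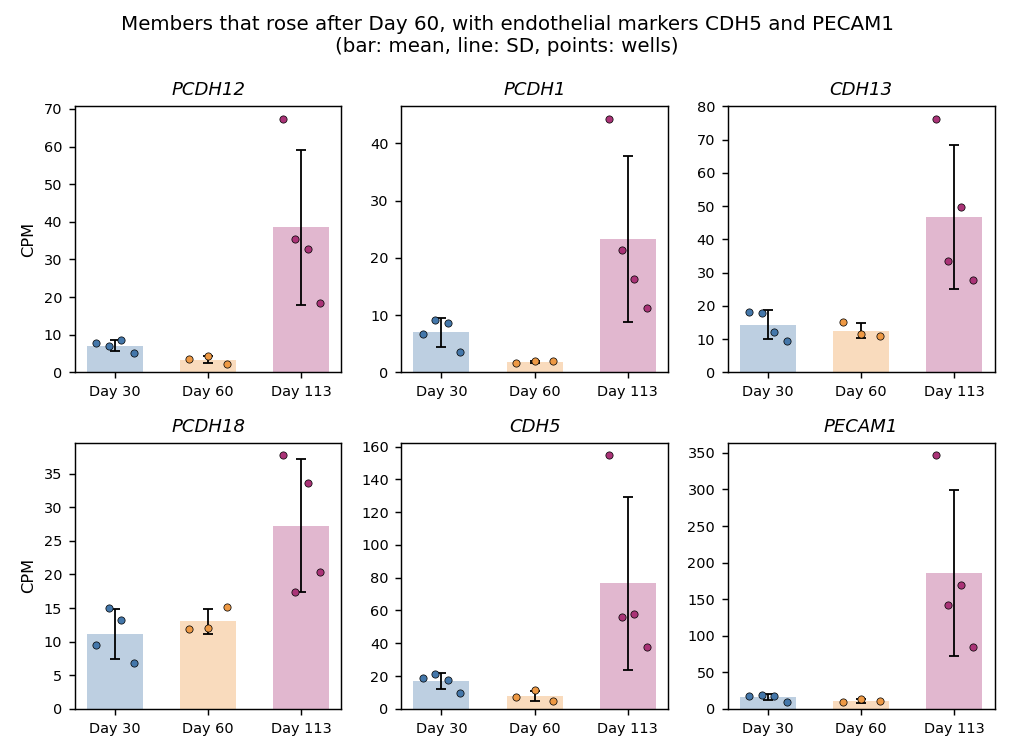
CPM (y axis, linear, from 0) by day of 4 members and of the endothelial markers CDH5 and PECAM1, with a point per well, bars for means and lines for SD (n = 4, 3 and 4 wells). In all 6 panels every Day 113 well is above every Day 60 well, and replicate 1 (leftmost point) is the highest Day 113 well.

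Other delta protocadherins, which are best known from developing neurons, took separate courses. PCDH10 (chr4:133149315-133208606) had its highest wells on Day 30 and its lowest on Day 113, from 32.4, 44.8, 37.1 and 29.3 CPM on Day 30 to 25.1, 25.8 and 23.7 CPM on Day 60 and 16.5, 10.6, 21.3 and 17.8 CPM on Day 113. The days did not overlap. The change from Day 30 to Day 113 was -1.12 ± 0.18 (adjusted p = 1.9e-04). The first interval was not called, at -0.53 ± 0.19 (adjusted p = 0.10), and the call in the second interval (-0.59 ± 0.19, adjusted p = 0.036) was lost in 6 of 19 alternatives, among them each fit without a Day 60 well, the fits without Day 113 replicate 1 or 2, and the fit with a replicate block.

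PCDH9 (chr13:66302834-67230445) rose, from 6.72, 8.17, 11.6 and 8.45 CPM on Day 30 to 10.4, 24.6 and 20.4 CPM on Day 60 and 20.6, 11.6, 31.0 and 22.4 CPM on Day 113. Day 30 and Day 113 came close but did not overlap. The change to Day 113 was 1.29 ± 0.29 (adjusted p = 0.0023). The change to Day 60 was 1.07 ± 0.30 (adjusted p = 0.032), and that call was lost in 7 of 19 alternatives, with adjusted p up to 0.15.

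PCDH19 (chrX:100291644-100410273), a gene linked to epilepsy, rose in the first interval. It had 2.14, 1.93, 1.68 and 0.687 CPM on Day 30, 3.19, 8.73 and 7.51 CPM on Day 60, and 2.74, 1.91, 4.42 and 3.57 CPM on Day 113. Day 60 was above Day 30 in every well and overlapped with Day 113. The rise was 2.01 ± 0.42 (adjusted p = 0.0062). The second interval was not called, at -1.03 ± 0.41 (adjusted p = 0.082), and the second interval differed from the first by -3.04 ± 0.70 (adjusted p = 0.013).

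CDH23 (chr10:71396934-71815947), a tip-link protein of inner-ear hair cells, varied widely between wells. Its levels were 0.687, 1.5, 5.17 and 1.24 CPM on Day 30, 6.38, 11.5 and 16.5 CPM on Day 60, and 0.491, 4.69, 7.93 and 23.8 CPM on Day 113. The Day 113 wells spanned those of both other days. The value for Day 113 against Day 30, 2.08 ± 0.77, was called at an adjusted p of 0.048 and lost the call in 11 of 19 alternatives, with adjusted p up to 0.41. Of its exon bases 18.9% are shared with another gene in the table, so its counts are less certain. Neural markers, 8 of 9 in the table, summed to 47.3 to 75.2, 52.8 to 76.5 and 43.7 to 60.0 CPM on the 3 days, with 1 higher on Day 60 and 1 lower on Day 113 than on Day 30. SOX2, chosen from that list after its values were seen, had 0, 0.262, 2.45 and 4.01 CPM in the Day 113 wells, in the same order as CDH23. The sum of the neural list in those wells, 43.7, 51.1, 60.0 and 56.4 CPM, did not keep that order. The part of such cells in the spread of CDH23 was not tested.

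**Figure D4:**
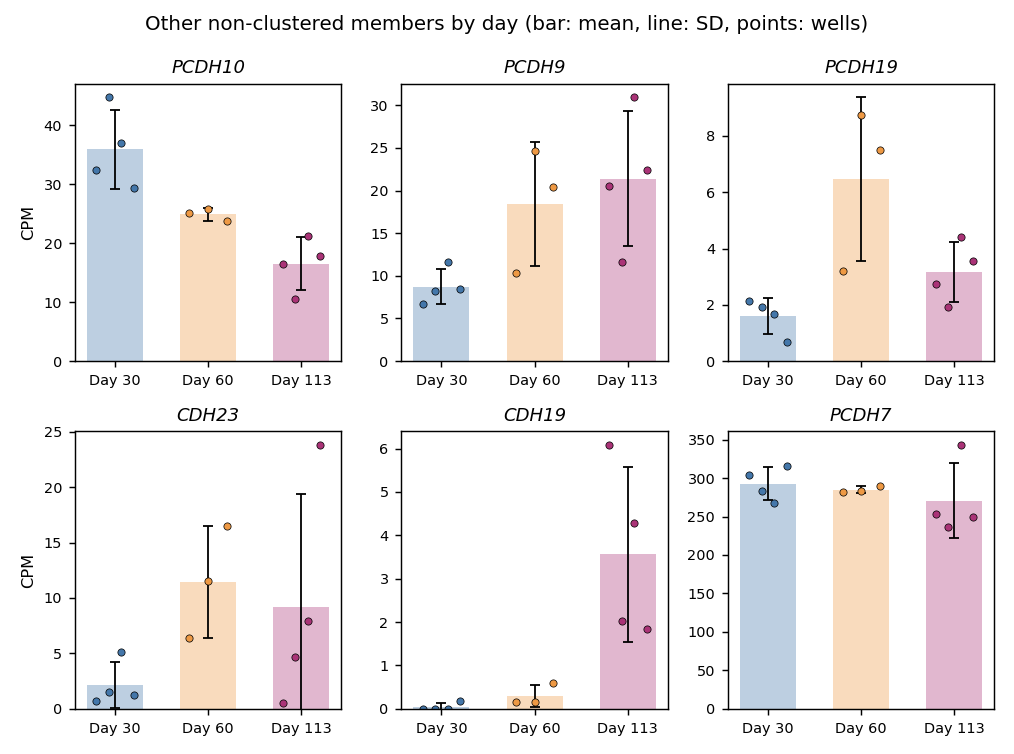
CPM (y axis, linear, from 0) by day of 6 further non-clustered members, with a point per well, bars for means and lines for SD (n = 4, 3 and 4 wells). PCDH10 steps down from day to day, PCDH19 is highest on Day 60 at 3.19 to 8.73 CPM, CDH23 spans 0.491 to 23.8 CPM within Day 113, CDH19 is highest on Day 113 and PCDH7 overlaps across the days.

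The non-clustered protocadherins with the highest levels per kb, PCDH7 and PCDH20, were called in no pair. PCDH7, a delta-1 protocadherin first described in brain and heart, had 305, 283, 268 and 316 CPM on Day 30, 281, 283 and 290.0 CPM on Day 60, and 253, 237, 343 and 249.8 CPM on Day 113. PCDH20 had 121, 101, 110.0 and 147 CPM, then 133, 106 and 106 CPM, then 113, 78.7, 92.4 and 106 CPM. For both genes the days overlapped. From Day 30 to Day 113 the values were -0.11 ± 0.11 for PCDH7 (adjusted p = 0.48) and -0.29 ± 0.13 for PCDH20 (adjusted p = 0.10). The value of PCDH20 passed the threshold in 2 of 19 alternatives, without Day 113 replicate 1 (adjusted p = 0.046) and with a replicate block (0.017), and adjusted p reached 0.34 over all 19. Per kb the 2 genes were alike, at 23.9 and 25.1 CPM per kb on Day 30 and 22.1 and 20.5 on Day 113. PCDH17, a delta-2 member, had day means of 8.42 to 9.10 CPM, and CDH16, CDH26, PCDH15 and PCDH11X peaked at day means of 1.09 to 2.03 CPM. None of these was called.

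The clustered protocadherins were expressed as a few leading isoforms. Summed over members, the alpha cluster had 132 ± 6.39 CPM on Day 30 (SD, n = 4), 117 ± 11.3 on Day 60 (n = 3) and 124 ± 25.1 on Day 113 (n = 4). The beta cluster had 155 ± 1.77, 132 ± 2.84 and 139.7 ± 14 CPM, and the gamma cluster 117 ± 7.06, 92.9 ± 5.99 and 112 ± 24.7 CPM. Each sum was thus lowest in its mean on Day 60; the sums were not tested. Of the 55 clustered members, 41 were neither called nor at 10 CPM on every day, and 17 of these 41 stayed under 1 CPM.

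In the alpha cluster PCDHAC2, whose variable exon lies next to the constant exons, was the highest member per kb in 11 of 11 wells. It made up 44.7% to 61.1% of the cluster's CPM. Its wells had 77.7, 55.8, 68.3 and 64.8 CPM on Day 30, 71.7, 73.6 and 63.3 CPM on Day 60, and 71.2, 47.5, 70.7 and 68.6 CPM on Day 113, and the days overlapped. The value for Day 113 against Day 30 was -0.05 ± 0.13 (adjusted p = 0.83). Its level was 19.3 CPM per kb on Day 30, close to those of PCDH7 and PCDH20. Its promoter window held none of the family motifs.

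PCDHAC1, the neighbouring C-type exon, rose in the second interval. It had 9.59, 7.37, 8.46 and 7.80 CPM on Day 30, 8.17, 6.45 and 4.86 CPM on Day 60, and 12.4, 8.17, 13.3 and 13.2 CPM on Day 113. Replicate 2 of Day 113 stood at the level of the highest Day 60 well, and the other Day 113 wells were above. The change was 0.86 ± 0.22 (adjusted p = 0.011, and 0.064 without Day 60 replicate 3).

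PCDHA4 went the other way in the first interval, from 10.5, 13.5, 16.5 and 10.7 CPM on Day 30 to 7.50, 8.62 and 6.43 CPM on Day 60, with 9.35, 6.52, 10.3 and 10.1 CPM on Day 113. Its Day 30 wells were above all later wells. The change to Day 60 was -0.77 ± 0.22 (adjusted p = 0.032), a call lost in 4 fits that left out a well (Day 30 replicate 2 or 3, Day 60 replicate 1 or 3). PCDHA10, with the same family motif in its window, had 12.2, 20.2, 17.9 and 11.4 CPM, then 12.1, 12.1 and 9.53 CPM, then 13.0, 8.55, 12.5 and 11.3 CPM, with overlapping days and no call. Its value for Day 113 against Day 30, -0.45 ± 0.20 (adjusted p = 0.096), passed the threshold in 1 of 19 alternatives, without Day 30 replicate 4 (adjusted p 0.043, up to 0.33 over all 19).

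In the beta cluster, whose genes are single exons, 4 members carried 60.2% to 71.6% of the CPM: PCDHB2, PCDHB15, PCDHB8 and PCDHB14. PCDHB2 was the highest per kb in 11 of 11 wells, at 9.85, 8.83 and 9.81 CPM per kb on the 3 days. Its wells had 36.7, 44.0, 42.2 and 39.6 CPM, then 33.1, 35.6 and 40.6 CPM, then 47.6, 36.6, 40.1 and 37.6 CPM. These days overlapped.

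PCDHB15 had 23.0, 20.2, 22.4 and 19.6 CPM on Day 30, 14.9, 18.4 and 15.0 CPM on Day 60, and 22.2, 16.3, 18.3 and 18.0 CPM on Day 113. PCDHB8 had 18.0, 18.9, 16.7 and 17.9 CPM, then 15.9, 15.4 and 17.3 CPM, then 22.2, 20.3, 17.3 and 12.9 CPM. PCDHB14 had 14.2, 17.1, 16.0 and 17.8 CPM, then 14.1, 16.3 and 14.4 CPM, then 18.2, 22.5, 17.5 and 18.8 CPM. None of these leading beta genes was called in a pair; the Day 60 wells of PCDHB15 lay under its Day 30 wells and those of PCDHB14 under its Day 113 wells.

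The beta genes that fell by Day 113 were PCDHB9, PCDHB10 and PCDHB13, which stand with PCDHB11 and PCDHB12 between PCDHB16 and PCDHB14 in gene order. PCDHB10 had 11.3, 8.34, 10.6 and 9.58 CPM on Day 30, 5.94, 8.03 and 4.51 CPM on Day 60, and 6.18, 4.87, 5.39 and 4.81 CPM on Day 113, with all later wells below Day 30. Its change from Day 30 to Day 113 was -0.90 ± 0.20 (adjusted p = 0.0028). PCDHB9 had 7.87, 7.51, 8.56 and 8.93 CPM, then 7.28, 7.96 and 5.30 CPM, then 7.42, 3.22, 3.97 and 3.17 CPM, and changed by -0.88 ± 0.26 (adjusted p = 0.016). Its Day 113 wells were below Day 30, with replicate 1 just under the lowest Day 30 well.

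PCDHB13 had 9.13, 8.17, 9.05 and 9.89 CPM on Day 30, 5.11, 2.54 and 7.92 CPM on Day 60, and 6.29, 2.51, 4.08 and 6.38 CPM on Day 113. All its Day 30 wells were the highest. The change of -0.91 ± 0.32 (adjusted p = 0.037) lost its call in 7 of 19 alternatives, each a fit without 1 well, with adjusted p up to 0.091. These genes carry the GGTGGCGCT stretch shown above, as do PCDHB2, PCDHB8, PCDHB14 and PCDHB15, which were not called.

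In the gamma cluster PCDHGB6 was the highest per kb in 11 of 11 wells, and together with the next gene of the array, PCDHGA10, it made up 56.3% to 71.3% of the CPM. PCDHGB6 had 56.3, 51.1, 55.7 and 53.2 CPM on Day 30, 48.2, 47.6 and 33.1 CPM on Day 60, and 58.6, 43.7, 62.3 and 46.7 CPM on Day 113. Its Day 60 wells were under its Day 30 wells, and no pair was called, with -0.33 ± 0.15 in the first interval (adjusted p = 0.18).

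PCDHGA10 had 27.0, 27.0, 26.2 and 19.6 CPM on Day 30, 10.8, 16.8 and 15.3 CPM on Day 60, and 33.6, 16.8, 20.2 and 19.8 CPM on Day 113. Day 60 lay below Day 30, and its highest well came level with the lowest Day 113 well. The dip of -0.80 ± 0.22 (adjusted p = 0.029) and the return of 0.66 ± 0.22 (adjusted p = 0.040) were both called, and the intervals differed by 1.46 ± 0.40 (adjusted p = 0.033). The calls were lost in 5 and 7 of 19 alternatives, with adjusted p up to 0.16 and 0.18, among them the fits without Day 30 replicate 1, 2 or 3 or Day 60 replicate 1 or 3.

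PCDHGC3, a C-type member, had 11.1, 10.1, 11.5 and 9.52 CPM on Day 30, 9.96, 11.9 and 12.4 CPM on Day 60, and 20.2, 8.59, 12.4 and 10.3 CPM on Day 113. Its days overlapped and no pair was called. PCDHGB4 and PCDHGB5, chosen after their values were seen, are the only pair among the 39 members whose 34-base stretch is letter for letter the same.
PCDHGB4, chr5:141387613-141387646: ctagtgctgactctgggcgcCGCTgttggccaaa
PCDHGB5, chr5:141397859-141397892: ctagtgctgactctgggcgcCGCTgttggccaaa
Their levels were apart in all 3 day means. PCDHGB4 had 2.80, 2.52 and 2.25 CPM per kb on Days 30, 60 and 113, and PCDHGB5 had 0.277, 0.178 and 0.211.

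**Figure D5:**
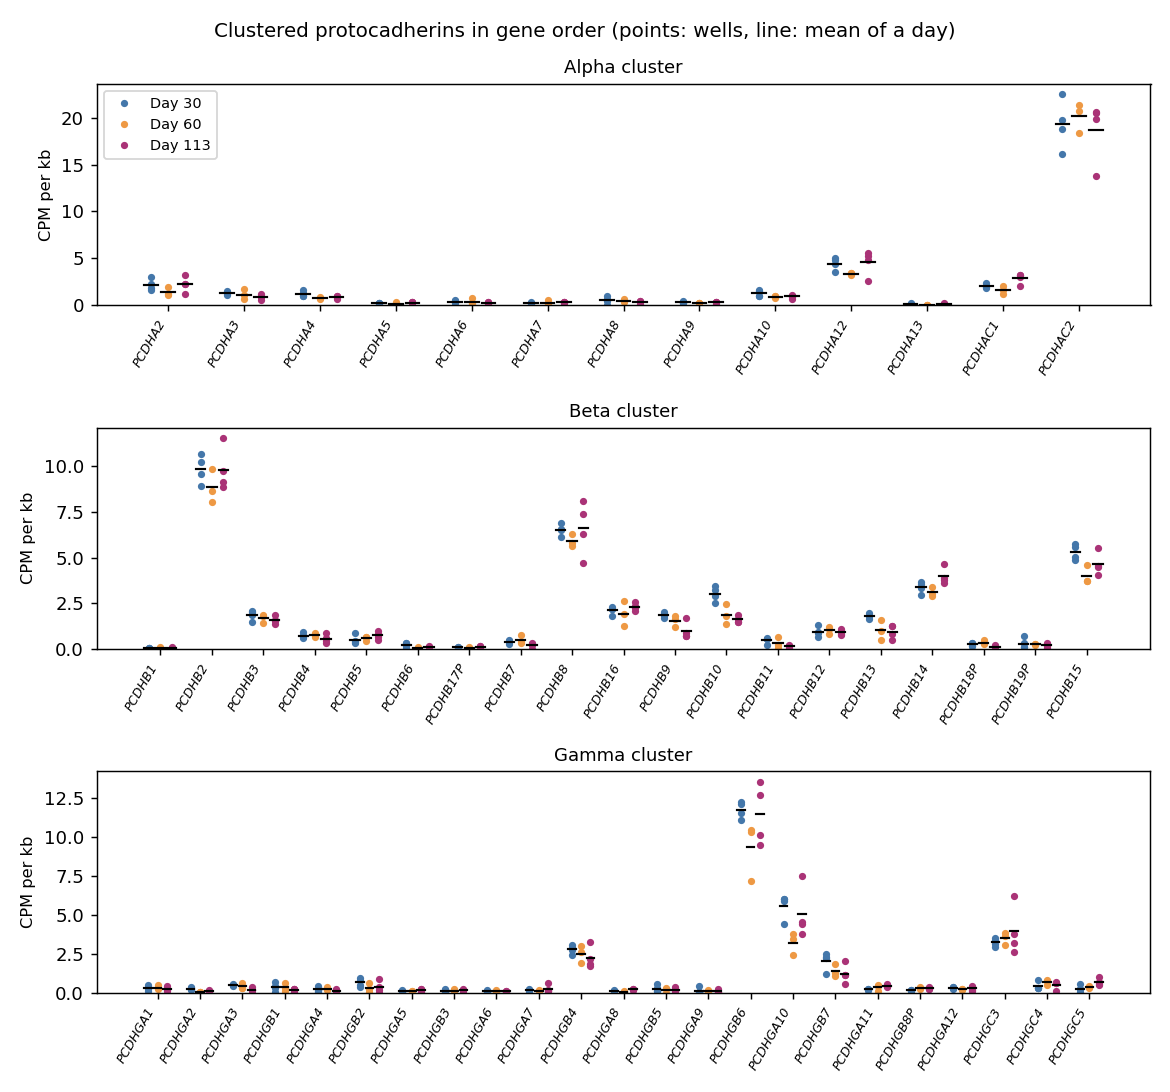
Level per kb of unshared exon (y axis, CPM per kb, linear, from 0) of the clustered members in gene order within each cluster, with a point per well in the colour of its day and a line for the mean of a day. PCDHAC2, PCDHB2 and PCDHGB6 stand highest in their clusters on all 3 days, and most other members lie near 0.

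Counts of alpha and gamma isoforms carry a limit, since they are annotated with common constant exons. Between 18.8% and 56.6% of the exon bases of the alpha members, and up to 64.4% of those of the gamma members, belong to another gene in the table. How reads over these bases were assigned is not given in the sources used here. PCDHA13 had 0 counts in 2 Day 60 wells although 53.5% of its exon bases are shared. Reads of near-identical exons may also have been split between members.

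The genes that work with cadherins were read from lists, by their change from Day 30 to Day 113, for which 34.5% of all genes were called. Of 12 catenins and cytoplasmic partners, 1 was higher and 3 lower, with a median of -0.078 beside -0.018 over all genes. CTNNB1, beta-catenin, rose by 0.29 ± 0.08 from 540 ± 19.2 to 659 ± 9.05 CPM (SD, n = 4). AFDN, the actin linker afadin, changed by -0.68 ± 0.11, CTNND2, a delta-catenin of neurons, by -0.76 ± 0.25, and CTNNA2, the alpha-catenin of neurons, by -2.11 ± 0.55.

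Desmosomal cadherins are adhesion proteins tied to intermediate filaments. Of 5 measured, 0 were called higher and 4 lower, with a median of -1.27. DSG2, the main desmoglein of heart, went from 234 ± 51.4 CPM on Day 30 to 120.1 ± 17.4 on Day 60 (SD, n = 3) and 65.0 ± 7.85 on Day 113 (SD, n = 4), a change of -1.85 ± 0.15. DSC2 changed by -1.27 ± 0.13 and DSC3 by -0.50 ± 0.17, and the other called gene was under 1 CPM on every day. DSC1, which was not called, had 1.65 ± 0.68 (adjusted p = 0.071). Of the 8 epithelial markers 7 were lower on Day 113 than on Day 30 too. DSG2 and the epithelial sum had the same order of Day 30 wells, from replicate 2 through 3 and 1 to replicate 4. The endothelial, fibroblast or stromal and neural sums had that Day 30 order as well, and the other marker lists did not. The part of any of these lists in the falls was not tested.

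Of 17 further cadherin superfamily genes, 2 were higher and 5 lower (median -0.44). FAT4, a large planar-polarity cadherin, rose by 1.85 ± 0.17 from 18.7 ± 2.54 to 67.5 ± 16.7 CPM (SD, n = 4), and CDHR1 by 1.44 ± 0.44. FAT2 changed by -2.25 ± 0.22 and CELSR3 by -0.95 ± 0.21. Of 9 genes of cadherin cleavage and glycosylation, 0 were higher and 6 lower (median -0.56). TMTC2 and TMTC4, which add O-linked mannose to cadherins, changed by -1.01 ± 0.12 and -0.93 ± 0.11. ADAM10, the sheddase of N-cadherin, changed by -0.69 ± 0.10, and FURIN, which cleaves the cadherin propeptide, by -0.60 ± 0.12.

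Of 15 regulators of the clustered promoters, 2 were higher and 5 lower (median -0.014). STAG1, a cohesin subunit, rose by 0.58 ± 0.09, while DNMT3B changed by -1.06 ± 0.22, DNMT3A by -0.46 ± 0.09 and TET1 by -0.96 ± 0.17, which are enzymes of DNA methylation and its removal. Of the 6 transcription factors known from cadherin switching, 4 were higher and 2 lower (median 0.73). SNAI2 rose by 1.84 ± 0.38 and ZEB1 by 0.80 ± 0.13, and SNAI1 and TWIST1 changed by -2.16 ± 0.68 and -1.22 ± 0.22.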

How the data were processed

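The authors deposited raw read counts per gene for 11 poly(A) RNA libraries and 19990 symbols. The submitters' processing notes name STAR 2.5.3a, featureCounts 2.0.3 and hg38; strand and multi-overlap settings and the annotation are not given in the sources used here. A deposited TPM table was not used for results, because the gene length implied by count over TPM did not repeat between libraries (median Spearman rho across 11210 genes -0.0020 over 55 library pairs).

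Genes were tested in edgeR 4.0.16 (R 4.3.3) with TMM scaling (factors 0.966 to 1.04), filterByExpr at a minimum count of 10, day as the only factor and all 11 wells in a single quasi-likelihood fit. P-values were adjusted by Benjamini-Hochberg over 19990 genes within each contrast, with a threshold of 0.05, and the standard error is the absolute log2 change over the square root of F. The method was tested on simulated data. Alternatives used DESeq2 1.42.0, limma 3.58.1 (voom), other scalings and filters, robust dispersions, a replicate block, an adjusted p of 0.01 and leaving out each well. All 84 symbols matched GENCODE v29, and levels per kb used exon bases shared with no other gene in the table.

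Values in every well are given for members called in a pair of days with a day mean of at least 1 CPM (20), and for uncalled members with at least 10 CPM on every day (11). Per further list, up to 4 called genes with a day mean of at least 1 CPM are named, by size of change from Day 30 to Day 113. The members, lists and markers were chosen with earlier results of these data known. PCDH11Y was counted but its level is not given. Some results of the marker lists are not reported here. The most similar wells of a day still differed by more than sampling noise.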

Additional observations from a re-analysis of the deposited data

Results flagged for a closer look

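Among 62 groups of 4 wells, formed by the 31 named members on Day 30 and Day 113, 5 held a well that stood apart by Dixon's ratio, the gap to its nearest neighbour over the range of the group. For normally spread values chance gives about 1 such group in 20. The groups reuse the same wells and are not independent. Replicate 2 of Day 113 was low for PCDHAC1 (8.17 CPM, with the next well at 12.4) and for PCDHAC2 (47.5 CPM, next 68.6). Replicate 3 of Day 113 was high for PCDH7 (343 CPM, next 253). Replicate 4 of Day 30 was low for PCDHGA10 (19.65 CPM, next 26.2) and was the only Day 30 well with CDH19 (0.172 CPM, the others 0). With the other wells at 0 the ratio of CDH19 is 1 by construction, and the chance rate does not apply to it.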

How the results depend on the processing

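The number of members called between Day 30 and Day 60 was 9, and became 14 with DESeq2 and 5 at an adjusted p under 0.01. Leaving out a well gave 4 to 12, with 4 without Day 60 replicate 3 and 5 without Day 30 replicate 2. Between Day 60 and Day 113 the 9 became 5 at an adjusted p under 0.01, and 5 to 11 without a well, with 5 without Day 60 replicate 3. The 7 differences between intervals became 4 at an adjusted p under 0.01, and 3 to 10 without a well, with 3 without Day 60 replicate 3. The count for Day 113 against Day 30 stayed within 12 to 18 over all alternatives, and that for any change within 14 to 23. Of 33 called results for named members, 20 kept the call under all 19 alternatives fitted at the threshold of 0.05, 13 lost it under at least 1 and 0 reversed. Among the 19 is a fit without the low-count filter. That filter removed no gene, so this fit repeats the main fit and could not change a call. Of those 20, PCDHB9 (Day 113 against Day 30, adjusted p = 0.016) would not pass 0.01. Uncalled changes near 0 from Day 30 to Day 113 turned sign: PCDHB8 was -0.0050 under upper-quartile scaling, and PCDHB2 was 0.0071 with at least 1 CPM in 3 libraries. Leaving out a well gave -0.11 to 0.076 for PCDHAC2, -0.093 to 0.044 for PCDHB2, -0.085 to 0.16 for PCDHB8, -0.014 to 0.44 for PCDHGC3 and -0.12 to 0.049 for PCDHGB6. The cause of these changes was not tested, beyond the stricter threshold and the fewer wells by construction.

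The labels state no pairing by well number, and the main fit used none. All 10 same-numbered pairs had a weak positive correlation of deviations, from 0.023 to 0.076, with 0 over 0.1. Of the 11 wells, 9 correlated best with a well of their own number. A weak likeness by well number was thus present, and these values cannot settle whether wells were paired. With the replicate block, 12, 10, 17, 23 and 9 members were called for the first interval, the second interval, Day 113 against Day 30, any change and the difference between intervals, beside 9, 9, 15, 18 and 7. Depth limits the 20 members under 1 CPM on every day, of which 0 were called.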
